A study of Caenorhabditis elegans with 16 samples.

Results

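The quantity described here was the interaction of genotype and fasting in adult Caenorhabditis elegans: the change on fasting in labelled-deficient animals minus the change on fasting in wild-type animals. All 16 of the 16 libraries entered it, 4 in each of 4 groups, and it was estimated for 15840 of the 21982 genes in the count table. A positive interaction means that the fasting change was more positive (or less negative) in labelled-deficient than in WT libraries, and a negative one the opposite.

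The fasted and the fed labelled-deficient groups were animals carrying a jmjd-3.1 mutation and grown on cbp-1 RNAi. The sample titles and the series description name the allele gk384, and the genotype field names gk387. The fasted and the fed WT groups were N2 (Bristol) animals on the empty vector control (EV). RNAi ran from the L1 larva to adult day 2, and food was withdrawn or given ad libitum for 24 hours from adult day 1 to day 2, at 20 °C. The protocols name RNAi bacteria as the food in one place and OP50-1 in another. Each library was made from poly(A)-selected RNA of the whole bodies of about 1000 animals, and the protocols state 4 independent biological replicates. The mutation and the RNAi always came together, so their effects cannot be told apart, and no library holds one without the other.

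In C. elegans, CBP-1 is a histone acetyltransferase that acts on lysine 27 of histone H3, and JMJD-3.1 is a demethylase that removes methyl groups from the same lysine, which frees it for acetylation. Acetylated lysine 27 marks active enhancers and promoters. When food is withdrawn, worms mobilise intestinal fat through lysosomal lipases and mitochondrial and peroxisomal beta-oxidation, lower yolk and egg production, and change the expression of many secreted gut proteins, under regulators that include DAF-16/FOXO, NHR-49 and HLH-30/TFEB.

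Reads per library ran from 16446032 to 27792655. Reads assigned to cbp-1 and jmjd-3.1 were not lower in the libraries labelled as carrying the RNAi and the mutation, so those libraries are called labelled-deficient throughout. cbp-1 stood at 259.9 to 322 CPM in fasted labelled-deficient libraries, 178 to 248 in fed labelled-deficient, 128 to 171 in fasted WT and 79.4 to 119.03 in fed WT libraries, and jmjd-3.1 at 21.1 to 23.2 CPM in fasted labelled-deficient libraries, 15.9 to 21.4 in fed labelled-deficient, 16.4 to 22.7 in fasted WT and 11.9 to 12.9 in fed WT libraries. The interaction was -0.14 ± 0.19 (adjusted p 0.619) on the log2 scale for cbp-1 and -0.37 ± 0.17 (adjusted p 0.109) for jmjd-3.1, which DESeq2 and library size scaling called. The value after ± beside a log2 change or interaction is its standard error, and adjusted p-values are those of edgeR unless another tool is named. Composition differed most in the fed WT libraries, whose TMM scaling factor averaged 0.843 ± 0.0416 (SD, n = 4), against 1.04 to 1.07 in the other group means. Because whole animals were sequenced, fewer cells of a type and less RNA per cell cannot be told apart in any value below. Summed intestinal markers stood at 264 to 284 CPM (reads relative to the TMM-scaled library total) in fasted labelled-deficient libraries, 352 to 394 in fed labelled-deficient, 221 to 252 in fasted WT and 759 to 961 in fed WT libraries. Summed germline markers stood at 1669 to 2234 CPM in fasted labelled-deficient, 1382 to 2200 in fed labelled-deficient, 690 to 823 in fasted WT and 665 to 982 in fed WT libraries. Summed neuronal markers stood at 344 to 385 CPM in fasted labelled-deficient, 304 to 372 in fed labelled-deficient, 317 to 351 in fasted WT and 314 to 379 in fed WT libraries. The intestinal sum was highest in fed WT, the germline sum was higher in every labelled-deficient than in every WT library, and the neuronal sums overlapped among all groups. Markers of hypodermis, body muscle, oocytes and embryos had reads in every group, as did sperm markers other than msp-142, which was at 0 in at least 1 group. The part of these markers in the results that follow was not tested.

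Fasting moved fewer genes in labelled-deficient than in WT libraries at the same threshold. By edgeR's quasi-likelihood test at a Benjamini-Hochberg adjusted p of 0.05, 5594 genes changed on fasting in labelled-deficient libraries (35.3% of those tested, with 19.6% up and 15.7% down), and 9657 changed in WT libraries (61% of those tested, with 30.4% up and 30.6% down). The difference between both responses was called for 4109 genes (25.9%), of which 2304 were positive (14.5%) and 1805 negative (11.4%). Over all tested genes the median log2 fasting change was 0.11 in labelled-deficient and 0.01 in WT libraries, and the median interaction was 0.07. The balance of signs depended on the scaling: DESeq2's size factors gave 1723 positive and 2165 negative calls, and scaling by library size alone gave 989 positive and 3547 negative calls with a median interaction of -0.22. Library size scaling thus lowered the median of all genes by 0.29, and a call of single genes that ended under it is named beside the value. Counts of calls under it are given for many of the lists, not for all.

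Each gene with a fasting call was put into 1 class from its 3 calls. A response was lost where WT changed, labelled-deficient animals did not pass the test and the interaction was called against the WT direction. It was reduced where both changed one way and the interaction was called against that direction, kept where both changed one way with no interaction call, enlarged where the interaction was called in their shared direction, gained where only the labelled-deficient change and the interaction were called, and opposed where both were called with opposite signs. Of the 10990 genes with a fasting call, 2096 were lost (19.1%), 1037 reduced (9.44%), 2802 kept (25.5%), 159 enlarged (1.45%), 466 gained (4.24%) and 263 opposed (2.39%), and 4167 were undecided (37.9%); the undecided genes had a fasting call but met none of these definitions. A kept class rests on an interaction that missed the threshold, which does not show equal responses. For 962 of the kept genes the 95% interval of the interaction lay within 1.5-fold either way. Lost responses were WT inductions for 831 genes and WT repressions for 1265 genes. The classes describe these libraries, since the contrasts behind them share libraries, and they carry no test of their own.

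**Figure D1:**
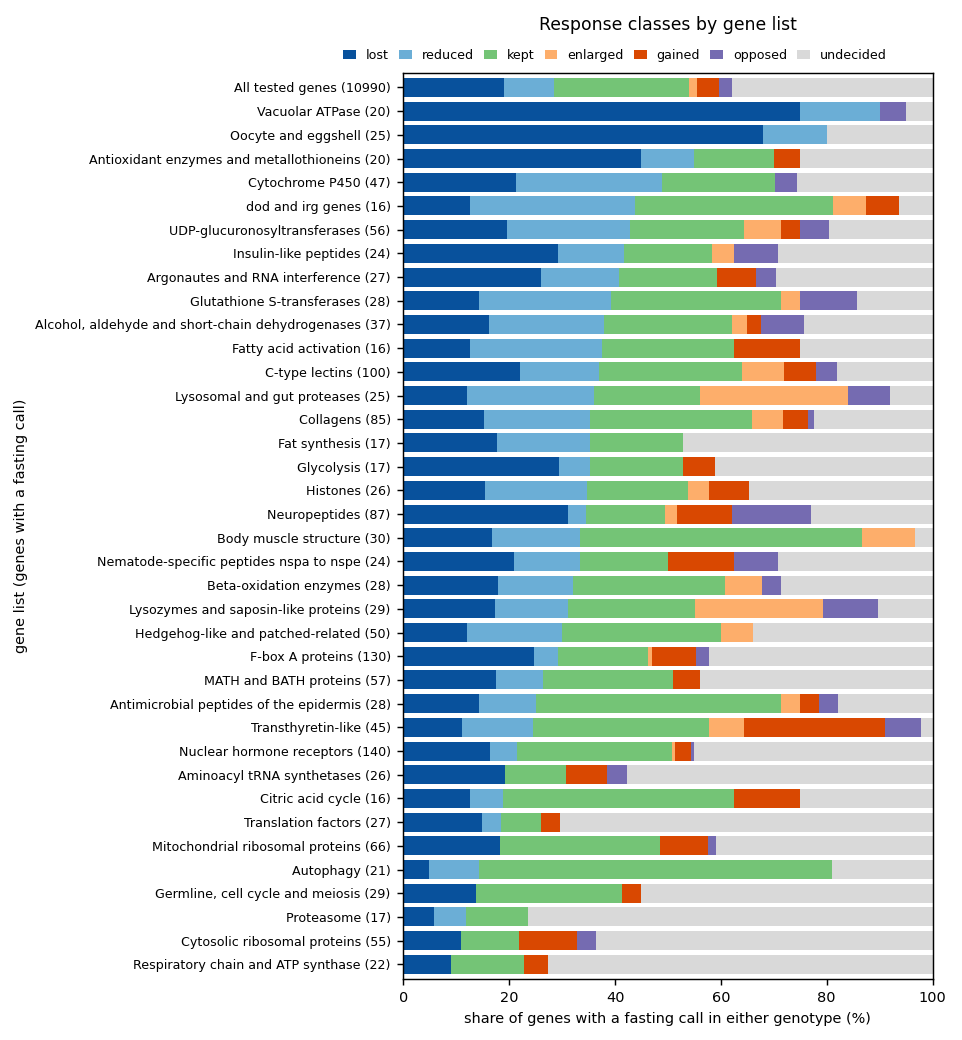
Share of each response class (percent of the genes of a list that had a fasting call, horizontal axis) for all tested genes and for the function lists. Of all genes with a fasting call 19.1% were lost and 25.5% kept, whereas 15 of the 20 vacuolar ATPase genes were lost and 14 of the autophagy genes were kept.

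**Figure D2:**
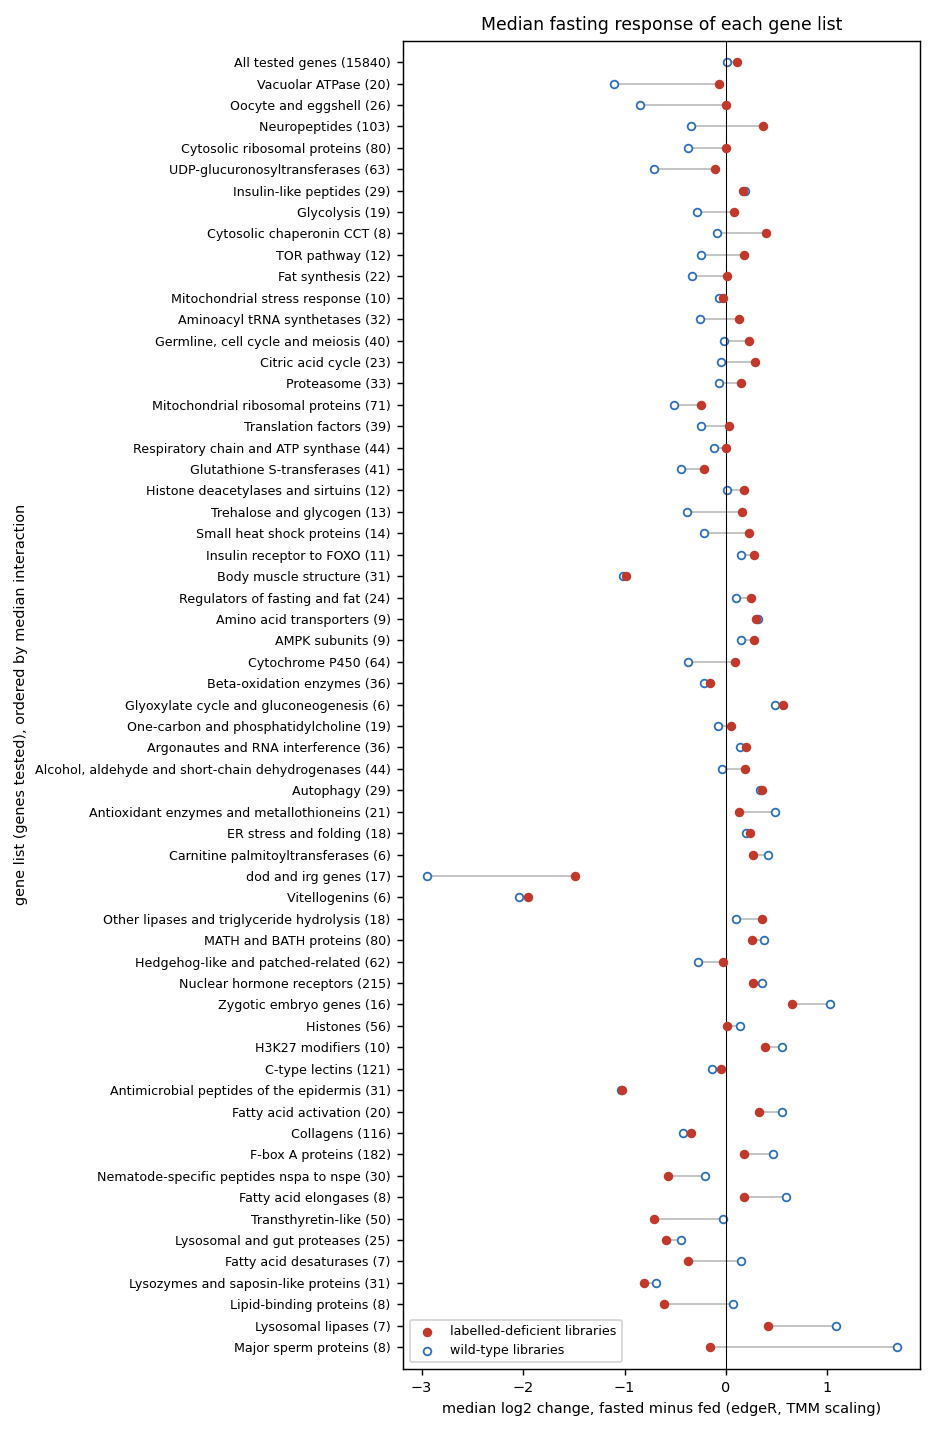
Median log2 fasting change of each function list in labelled-deficient and in WT libraries (points) on a shared log2 axis. The vacuolar ATPase list sat at -0.07 in labelled-deficient and -1.10 in WT libraries, and the lysosomal lipases at 0.41 in labelled-deficient and 1.08 in WT libraries.

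The interaction is also the difference between genotypes in fasted libraries minus that in fed libraries, and the lists differed in the state that set the genotypes apart. Neuropeptide genes had a median difference, labelled-deficient minus WT, of -0.06 between fasted and -0.63 between fed groups on the log2 scale. For oocyte and eggshell genes the median was 1.12 between fasted and 0.25 between fed groups. Their mean summed level, however, differed in both states and in opposite directions. It was 11422 CPM in fasted labelled-deficient and 7637 in fasted WT libraries, but 11564 in fed labelled-deficient and 16554 in fed WT libraries. For transthyretin-like genes the median was -1.03 between fasted and -0.55 between fed groups, and for lysosomal lipases -2.59 between fasted and -1.10 between fed groups. Over all tested genes they were -0.04 between fasted and -0.06 between fed groups.

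Most responses of the vacuolar ATPase were lost. It is the proton pump that acidifies lysosomes and energises the apical membranes of gut and excretory cells. Of 20 subunit genes, 3 fell in labelled-deficient animals (vha-5, vha-12 and vha-3, the last chosen after its values were seen), beside 15.7% of all tested genes that fell there; 1 rose (vha-6), beside 19.6%, and the others did not pass the test. In fasted WT animals all 20 fell, beside 30.6% of all tested genes. Of the 20 interactions 19 were called and positive, against 14.5% of all tested genes. The exception was vha-18, singled out after its values were seen, with an interaction of 0.50 ± 0.21 (adjusted p 0.0897); the adjusted p ran from 0.0309 to 0.174 with single libraries left out. The median fasting change was -0.07 in labelled-deficient and -1.10 in WT libraries, beside 0.11 in labelled-deficient and 0.01 in WT libraries over all tested genes, and 17 interactions were still positive calls under library size scaling. The summed level of the list was 2546 to 2829 CPM in fasted labelled-deficient libraries, 2663 to 3179.7 in fed labelled-deficient, 2240.0 to 2537 in fasted WT and 5314 to 5779 in fed WT libraries. The fed WT libraries stood apart from all the others, and the fed labelled-deficient libraries lay near both fasted groups: between fed groups the median difference, labelled-deficient minus WT, was -1.03 on the log2 scale, against 0.20 between fasted groups.

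The largest interaction of the list was that of vha-6 (WBGene00006915; chromosome II, 11435210 to 11438452, minus strand, build WBcel235 here and for the other positions), the intestinal a subunit. Its level was 62.1, 60.5, 63.4 and 62.4 CPM in fasted labelled-deficient libraries, 47.6, 52.9, 47.6 and 59.2 in fed labelled-deficient, 70.8, 81.1, 85.2 and 71.0 in fasted WT and 236, 266, 238 and 238 in fed WT libraries. Fed WT libraries were the highest without overlap, and the fasted labelled-deficient libraries were slightly above the fed labelled-deficient ones. vha-6 rose by 0.26 on the log2 scale in labelled-deficient animals and fell by 1.67 in WT animals, with an interaction of 1.93 ± 0.14 (adjusted p 1.84e-09). The C subunit gene vha-11 had a labelled-deficient change of 0.06 ± 0.10 (adjusted p 0.665), which did not pass the test, and fell by 1.69 in WT, with an interaction of 1.75 ± 0.14 (adjusted p 8.46e-09). The B subunit gene vha-12 changed by -0.30 in labelled-deficient and -2.05 in WT animals, with an interaction of 1.75 ± 0.16 (adjusted p 5.45e-08). For vha-5, the a subunit of the excretory canal and hypodermis, the changes were -1.78 in labelled-deficient and -2.47 in WT animals, and its interaction of 0.69 ± 0.20 (adjusted p 0.014) was not called under library size scaling. vha-6 is also one of the intestinal markers, and 3 of the 5 markers of the intestine that could be tested had positive interactions. The sum of these markers, which includes vha-6, was likewise highest in fed WT libraries. In labelled-deficient libraries, however, it fell from 352 to 394 CPM when fed to 264 to 284 when fasted, whereas the median change of the list was -0.07. The part of intestinal marker levels in the list was not tested.

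**Figure D3:**
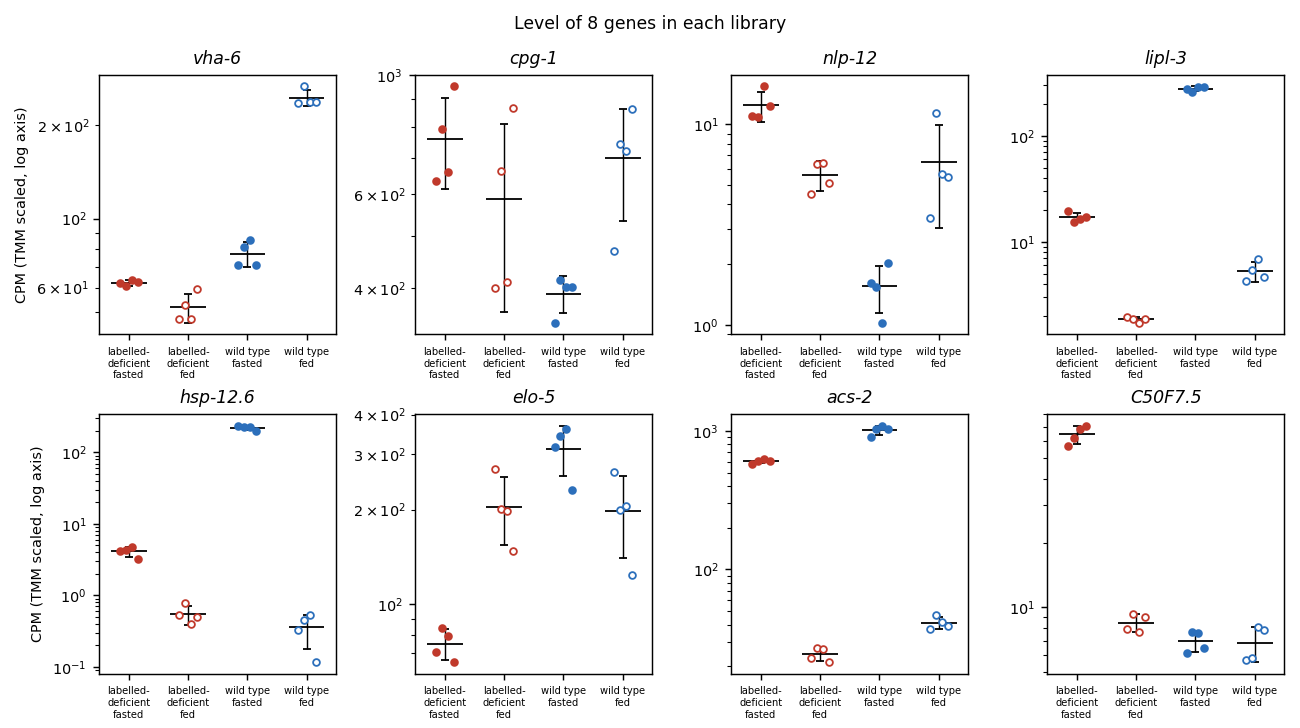
CPM (log axis, TMM scaled) of 8 genes in each of the 16 libraries (points), with the mean and SD of the 4 libraries of a group (bars). vha-6 was highest in fed WT libraries, nlp-12 was lowest in fasted WT libraries, elo-5 was lowest in fasted labelled-deficient libraries, and lipl-3 and hsp-12.6 were highest in fasted WT libraries.

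**Figure D4:**
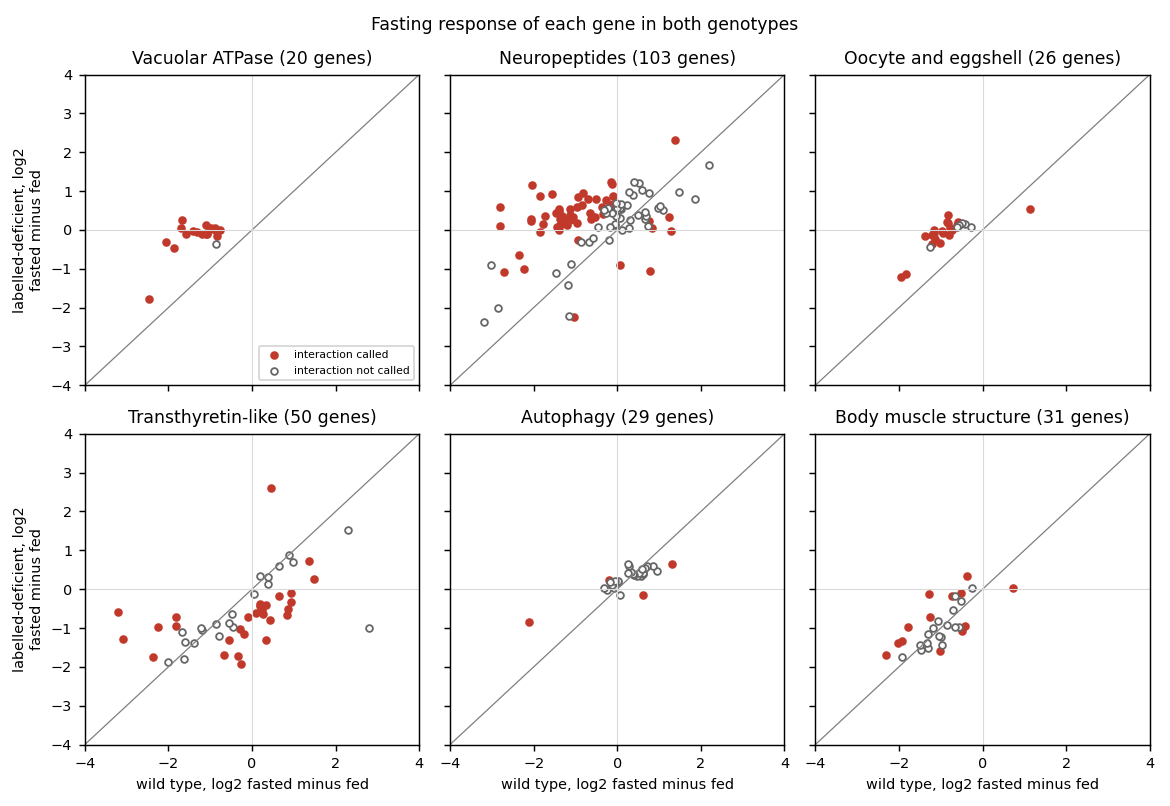
Log2 fasting change in labelled-deficient libraries against that in WT libraries, 1 point per gene, for 6 function lists, with the line of equal change drawn. Vacuolar ATPase points lie left of and above the line, with WT changes below 0. Their labelled-deficient changes lie near 0 except that of vha-5 (-1.78 in labelled-deficient animals). Autophagy points lie mostly along the line, with 13.8% of interactions called. Body muscle points depart from it to both sides, with 41.9% called, against 25.9% of all tested genes.

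Oocyte and eggshell genes also fell together in WT animals. Of the 26 genes tested, 2 fell and 1 rose in labelled-deficient animals, whereas 24 fell and 1 rose in fasted WT animals, and 19 interactions were positive and 1 negative (76.9% called, against 25.9% of all tested genes). The median change was 0.00 in labelled-deficient and -0.85 in WT libraries, and 17 members were lost and 3 reduced. The summed level was 9723 to 13458 CPM in fasted labelled-deficient libraries, 9108 to 15292 in fed labelled-deficient, 7271 to 8238 in fasted WT and 12444 to 18749 in fed WT libraries. Fasted WT libraries were below all others, and fed WT libraries overlapped with fed labelled-deficient libraries. The number of positive calls was 15 with DESeq2's size factors and 10 with library size scaling.

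The gene for the eggshell chondroitin proteoglycan cpg-1 (WBGene00000465; chromosome III, 4489359 to 4491392, plus strand) illustrates it. Its level was 634, 792, 659.6 and 952 CPM in fasted labelled-deficient libraries, 399.6, 663, 411 and 869 in fed labelled-deficient, 345, 415, 402 and 401 in fasted WT and 470.0, 743, 720.0 and 863 in fed WT libraries. The fasted labelled-deficient libraries overlapped with both fed groups, and the fed WT libraries were all above the fasted WT libraries. Its change was 0.38 ± 0.21 (adjusted p 0.167) in labelled-deficient animals and -0.84 ± 0.21 (adjusted p 0.00168) in WT animals, with an interaction of 1.21 ± 0.30 (adjusted p 0.00461). The oocyte receptor for yolk, rme-2, had 0.01 in labelled-deficient animals, not called, and -1.17 in WT animals, with an interaction of 1.17 ± 0.25 (adjusted p 0.00153). For egg-1, an oocyte surface protein needed at fertilization, the interaction was 1.21 ± 0.28 (adjusted p 0.00283). perm-4, which forms the permeability barrier of the eggshell, fell in both genotypes, with changes of -1.21 in labelled-deficient and -1.96 in WT animals; its interaction was 0.75 ± 0.26 (adjusted p 0.0359), and the adjusted p ran from 0.0102 to 0.1 with single libraries left out. perm-2 fell in both genotypes too (-1.14 in labelled-deficient and -1.82 in WT animals), and the adjusted p of its interaction ran from 0.00579 to 0.0788 with single libraries left out. Neither perm-4 nor perm-2 had an interaction call with DESeq2's size factors or library size scaling. In contrast, the caveolin gene cav-1 rose in both (0.54 in labelled-deficient and 1.13 in WT animals) with the 1 negative interaction of the list, -0.59 ± 0.16 (adjusted p 0.0112); perm-2 and cav-1 were chosen after their values were seen. Of 8 oocyte and eggshell markers 7 had positive interactions. These markers include cpg-1, perm-2 and perm-4 of this list, so their calls are partly the same calls and no separate evidence. The summed level of the markers was 4578 to 6401 CPM in fasted labelled-deficient libraries, 4097 to 7179 in fed labelled-deficient, 4150 to 4634 in fasted WT and 8142 to 13271 in fed WT libraries. Markers of zygotic embryos summed to 12.0 to 15.7 CPM in fasted labelled-deficient, 7.63 to 9.85 in fed labelled-deficient, 20.9 to 22.2 in fasted WT and 6.79 to 7.19 in fed WT libraries, highest in the fasted WT libraries; their part in these values was not tested.

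Neuropeptide genes, which encode secreted peptide messengers, rose more often than they fell in fasted labelled-deficient animals and fell more often than they rose in fasted WT animals. Of 103 genes tested, 38 rose and 12 fell in fasted labelled-deficient animals, whereas 19 rose and 49 fell in fasted WT animals. The summed level of the list was 1131 to 1295 CPM in fasted labelled-deficient libraries, 1242 to 1608 in fed labelled-deficient, 1552 to 1784 in fasted WT and 2685 to 4393 in fed WT libraries. Its mean was thus lower in fasted than in fed libraries of both genotypes, with overlap in the labelled-deficient ones. Interactions were positive for 48 and negative for 7 (53.4% called, against 25.9% of all tested genes). The median change was 0.37 in labelled-deficient and -0.34 in WT libraries; 27 responses were lost, 13 opposed, 9 gained and 13 kept. Positive calls numbered 47 with DESeq2's size factors and 38 with library size scaling, where negative ones numbered 13. Of 6 neuronal markers 1 had an interaction call, a positive one, and their summed level overlapped among all groups.

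The cholecystokinin-like peptide gene nlp-12 had 11.003, 10.9, 15.5 and 12.4 CPM in fasted labelled-deficient libraries, 4.51, 6.37, 6.43 and 5.10 in fed labelled-deficient, 1.63, 1.54, 1.03 and 2.03 in fasted WT and 3.40, 11.4, 5.65 and 5.45 in fed WT libraries. It was lowest in the fasted WT libraries, every fasted labelled-deficient library lay above every fed one of that genotype, and 1 fed WT library, replicate 2, lay among the fasted labelled-deficient libraries. It rose by 1.15 in labelled-deficient animals and fell by 2.04 in WT animals, with an interaction of 3.19 ± 0.38 (adjusted p 2.13e-06). flp-15, an FMRFamide-like peptide gene, rose and fell likewise (0.87 in labelled-deficient and -1.86 in WT animals), with an interaction of 2.73 ± 0.31 (adjusted p 1.07e-06). nlp-20 had a change of 0.11 in labelled-deficient animals that did not pass the test and fell by 2.80 in WT animals, with an interaction of 2.91 ± 0.21 (adjusted p 1.48e-09). By contrast, nlp-26 fell in both (-2.37 in labelled-deficient and -3.20 in WT animals), with an interaction of 0.82 ± 0.45 (adjusted p 0.173) that was not called.

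Cytosolic ribosomal protein genes had a median interaction of 0.43, and of 0.13 under library size scaling. They numbered 80, of which 10 rose and 5 fell in labelled-deficient animals, whereas 1 rose and 47 fell in fasted WT animals. Positive calls numbered 14 and negative ones 0 by edgeR's test, which makes 17.5% called, below the 25.9% of all tested genes. That count was not stable: it was 6 and 3 with DESeq2's size factors and library size scaling, 6 to 9 without any one of fasted labelled-deficient replicates 2 and 4, fed labelled-deficient replicates 1 and 3, fasted WT replicates 1, 2 and 3 and fed WT replicate 2, and 27 to 44 without any one of fed labelled-deficient replicate 4 and fed WT replicate 1. rps-2 and rps-6, of the small subunit, had interactions of 0.79 (adjusted p 0.00686) and 0.75 (adjusted p 0.00744) by edgeR. In the cytosolic chaperonin CCT, a ring complex that folds actin and tubulin, 5 of 8 subunit genes rose in fasted labelled-deficient animals (cct-2, cct-3, cct-6, cct-7 and cct-8) and 0 of 8 changed in WT animals by edgeR. Over all tested genes 19.6% rose in labelled-deficient and 61% changed in WT libraries. cct-3 had the largest interaction, 0.71 ± 0.15 (adjusted p 0.00137), with a change of 0.57 in labelled-deficient and -0.13 in WT animals. In all, 4 CCT interactions were called, those of cct-3, cct-5, cct-7 and cct-8 (50% called, against 25.9% of all tested genes). Under the other scalings named above 2 and 1 were called. The count was 2 without any one of fasted labelled-deficient replicates 2 and 4, fed labelled-deficient replicates 1 and 3, fasted WT replicates 1, 2, 3 and 4 and fed WT replicates 3 and 4, and 6 without fed labelled-deficient replicate 4. With single libraries left out the adjusted p ran from 0.0281 to 0.108 for cct-5 and from 0.0104 to 0.103 for cct-7, and both calls ended under both other scalings. The respiratory chain and ATP synthase list had 0 positive and 3 negative calls among 44 genes, namely atp-6, cox-17 and cox-19 (6.82% called, below the 25.9% of all tested genes). Positive calls numbered 2 to 7 without any one of fed labelled-deficient replicate 4 and fed WT replicates 1 and 3, and negative ones 8 under library size scaling. For cox-17 the adjusted p ran from 0.00604 to 0.0666 with single libraries left out.

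Inductions of fat mobilisation were smaller in labelled-deficient animals at several genes. Lysosomal lipases release fatty acids from lipid droplets delivered to lysosomes, and 3 of 7 tested members rose in fasted labelled-deficient animals, against 6 in WT animals. Over all tested genes 19.6% rose in labelled-deficient and 30.4% in WT libraries. Negative interactions numbered 4 and positive ones 1 (71.4% called, against 25.9% of all tested genes). Negative calls numbered 2 under a filter of a mean of 5 CPM and 6 under library size scaling. lipl-3 (WBGene00020016; chromosome V, 521595 to 524218, minus strand) had 19.4, 15.2, 16.3 and 17.3 CPM in fasted labelled-deficient libraries, 1.95, 1.86, 1.72 and 1.87 in fed labelled-deficient, 280.5, 261, 293 and 288 in fasted WT and 4.21, 5.42, 6.93 and 4.69 in fed WT libraries. Both fasted groups lay far above both fed groups without overlap, with the fasted WT libraries the highest and the fed labelled-deficient libraries the lowest. lipl-3 rose by 3.20 in labelled-deficient and by 5.73 in WT animals, with an interaction of -2.53 ± 0.20 (adjusted p 4.66e-09). lipl-4 rose by 3.68 in labelled-deficient and 7.53 in WT animals, with an interaction of -3.85 ± 0.88 (adjusted p 0.00273). With single libraries left out that interaction ran from -4.43 to -3.34 and its adjusted p from 0.000802 to 0.044. lipl-6 had 0.06 in labelled-deficient animals, not called, and rose by 1.74 in WT animals, with an interaction of -1.67 ± 0.49 (adjusted p 0.0151). The adjusted p of lipl-6 ran from 0.00949 to 0.0408 with single libraries left out. lipl-1 was opposed: it fell by 1.17 in labelled-deficient and rose by 0.34 in WT animals. lipl-7, which fell by 1.26 in WT animals, had the positive interaction, 0.84 ± 0.20 (adjusted p 0.00399), and lost that call under library size scaling. lipl-5 rose by 0.57 in labelled-deficient and 0.63 in WT animals and was kept within 1.5-fold, although library size scaling made its interaction a negative call. For lipl-2 the interaction was -0.67 ± 0.26 (adjusted p 0.0586), which missed the threshold and passed it with DESeq2 and with both other scalings; the adjusted p ran from 0.0113 to 0.12 with single libraries left out.

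The carnitine palmitoyltransferases, which carry fatty acids into mitochondria, differed among themselves. Of 6 genes, cpt-3 and cpt-4 had the large interactions. cpt-4 had a labelled-deficient change of -0.23 ± 0.16 (adjusted p 0.272), which did not pass the test, and rose by 3.02 in WT animals, with an interaction of -3.25 ± 0.24 (adjusted p 1.84e-09). cpt-3 rose by 0.59 in labelled-deficient and 3.65 in WT animals, with an interaction of -3.06 ± 0.27 (adjusted p 2.15e-08). cpt-1, cpt-2 and cpt-6 had interactions of -0.35, 0.33 and 0.41 that were not called, although leaving out fed labelled-deficient replicate 4 brought cpt-2 to an adjusted p of 0.0298, leaving out fed WT replicate 4 brought cpt-6 to 0.0338, and library size scaling made that of cpt-1 a negative call. The positive call of cpt-5 (0.72 ± 0.25, adjusted p 0.0362) ended under both other scalings, and the adjusted p ran from 0.0101 to 0.125 with single libraries left out. Among fatty acid-activating acyl-CoA synthetases 7 of 20 rose in labelled-deficient and 12 in WT animals. Of all tested genes 19.6% rose in labelled-deficient and 30.4% in WT libraries. Interactions were negative for 6 and positive for 2 (40% called, against 25.9% of all tested genes). Library size scaling gave 10 negative and 0 positive calls. acs-3 rose by 1.43 in labelled-deficient and 3.00 in WT animals (interaction -1.57 ± 0.24, adjusted p 3.95e-05), and acs-16 was lost, with -0.14 in labelled-deficient animals, not called, and 0.91 in WT animals. acs-2, the mitochondrial synthetase used as a marker of fasting, did not share this: its rises of 4.62 in labelled-deficient and 4.63 in WT animals left an interaction of -0.01 ± 0.16 (adjusted p 0.974), inside 1.5-fold.

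Beta-oxidation enzymes had no shared direction. Of 36 genes, 6 had positive and 7 negative interactions, and 36.1% called is to be read against 25.9%; library size scaling gave 13 negative calls. acdh-1, a short-chain acyl-CoA dehydrogenase, fell in both genotypes and further in labelled-deficient animals (-4.11 in labelled-deficient and -2.19 in WT animals; interaction -1.92 ± 0.21, adjusted p 4.6e-07). The peroxisomal acyl-CoA oxidase acox-1.2 changed by -0.52 in labelled-deficient and -2.19 in WT animals, with an interaction of 1.67 ± 0.19 (adjusted p 1.1e-06). acdh-2 also fell less in labelled-deficient animals, with -1.02 in labelled-deficient and -2.20 in WT animals.

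Enzymes that desaturate and elongate fatty acids, together with the lipid-binding proteins that carry them, included several that fell on fasting in labelled-deficient animals and rose, or did not pass the test, in WT animals. Of 7 desaturase genes, 5 fell and 2 rose in labelled-deficient animals, against 1 that fell and 3 that rose in WT animals. Of all tested genes 15.7% fell in labelled-deficient and 30.6% in WT libraries. By edgeR 4 interactions were negative and 0 positive (57.1% called, against 25.9% of all tested genes). fat-6, a stearoyl-CoA desaturase, fell by 0.52 in labelled-deficient and rose by 0.52 in WT animals (interaction -1.04 ± 0.14, adjusted p 1.41e-05). fat-5, a palmitoyl-CoA desaturase, fell by 1.19 in labelled-deficient animals and had 0.13, not called, in WT animals (interaction -1.32 ± 0.17, adjusted p 4.68e-06). The omega-3 desaturase fat-1 was likewise gained (-0.38 in labelled-deficient and 0.15 in WT animals), and the delta-6 desaturase fat-3 rose in both with a smaller rise in labelled-deficient animals (0.53 in labelled-deficient and 1.53 in WT animals). fat-7 fell steeply in both (-2.72 in labelled-deficient and -3.35 in WT animals), with an interaction of 0.63 ± 0.24 (adjusted p 0.0614); the adjusted p ran from 0.0339 to 0.235 with single libraries left out. For fat-2 and fat-4 the interactions were 0.33 and -0.23, neither called, with that of fat-4 a negative call under library size scaling.

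The elongase elo-5 (WBGene00001243; chromosome IV, 5374616 to 5377117, minus strand), which makes monomethyl branched-chain fatty acids, gave an opposed response. It had 70.6, 84.4, 79.4 and 65.7 CPM in fasted labelled-deficient libraries, 269, 201, 197 and 148 in fed labelled-deficient, 317, 341, 359 and 231 in fasted WT and 264, 199, 206 and 124 in fed WT libraries. The fasted labelled-deficient libraries were the lowest without overlap, and the libraries of the other groups overlapped among themselves. elo-5 fell by 1.44 in labelled-deficient and rose by 0.66 in WT animals, with an interaction of -2.10 ± 0.27 (adjusted p 5.52e-06). Its partner elo-6 rose in both, by 0.52 in labelled-deficient and 1.65 in WT animals, with an interaction of -1.14 ± 0.25 (adjusted p 0.00215), and elo-3 had -0.37 in labelled-deficient and -1.08 in WT animals, with a positive interaction of 0.71 (adjusted p 0.00424) by edgeR. Of 8 lipid-binding protein genes, 5 fell and 0 rose in labelled-deficient animals, against 3 that fell and 3 that rose in WT animals. Their interactions were negative for 4 and positive for 0 (50% called, against 25.9% of all tested genes). lbp-5 was opposed (-1.498 in labelled-deficient and 0.38 in WT animals; interaction -1.88 ± 0.22, adjusted p 1.88e-06), lbp-6 lost its rise (-0.22 in labelled-deficient animals, not called, and 0.68 in WT animals), and lbp-7 fell further in labelled-deficient animals (-1.52 in labelled-deficient and -0.63 in WT animals).

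Genes of fat synthesis fell for 3 of 22 members in labelled-deficient and for 12 in WT animals, beside 15.7% of all tested genes that fell in labelled-deficient and 30.6% in WT libraries. Interactions were positive for 5 and negative for 1 (27.3% called, near the 25.9% of all tested genes). Positive calls numbered 3 without any one of fasted labelled-deficient replicate 4 and fed labelled-deficient replicate 3, and 8 without fed labelled-deficient replicate 4, and 2 under library size scaling. dgat-2, which makes triglyceride, changed by -1.07 in labelled-deficient and -2.50 in WT animals (interaction 1.43 ± 0.15, adjusted p 1.98e-07). The fatty acid synthase gene fasn-1 changed by -0.76 in labelled-deficient and -1.97 in WT animals (interaction 1.21 ± 0.19, adjusted p 6.99e-05). The 6 yolk vitellogenin genes had 1 positive and 2 negative interactions (50% called, against 25.9% of all tested genes). vit-3 changed by -6.57 in labelled-deficient and -4.76 in WT animals, with an interaction of -1.81 ± 0.17 (adjusted p 6.91e-08), whereas vit-4 changed by -6.21 in labelled-deficient and -6.01 in WT animals, with an interaction of -0.20 ± 0.18 (adjusted p 0.413) that library size scaling called. The negative call of vit-5 (-0.51 ± 0.19, adjusted p 0.0473) was weak, and the adjusted p ran from 0.0321 to 0.109 with single libraries left out. vit-3, vit-4 and vit-5 are nearly identical in sequence, so reads may have been exchanged among them and their separate values are uncertain. vit-1 fell in both with a positive interaction, 0.69 ± 0.17 (adjusted p 0.00421).

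Of 19 glycolysis genes, 1 fell and 5 rose in labelled-deficient animals, against 11 that fell and 4 that rose in WT animals, and 7 interactions were positive and 1 negative (42.1% called, against 25.9%). Positive calls numbered 4 without any one of fasted labelled-deficient replicate 4, fed labelled-deficient replicates 1 and 3 and fasted WT replicate 1, and 11 without fed WT replicate 1, and were 4 and 3 with DESeq2's size factors and library size scaling, where negative ones numbered 4. Lactate dehydrogenase ldh-1 had 0.32 in labelled-deficient animals, not called, and -0.76 in WT animals (interaction 1.08 ± 0.21, adjusted p 0.000656), and the hexokinase gene hxk-1 -0.10 in labelled-deficient animals, not called, and -0.90 in WT animals (interaction 0.80 ± 0.19, adjusted p 0.00307). The aldolase gene aldo-2 carried the negative interaction, with rises of 0.49 in labelled-deficient and 1.26 in WT animals. Of 13 trehalose and glycogen genes, 5 had positive and 1 a negative interaction (46.2% called, against 25.9%). Positive calls numbered 3 without any one of fasted labelled-deficient replicates 1 and 4, fed labelled-deficient replicates 1 and 3, fasted WT replicates 1 and 4 and fed WT replicate 3. They numbered 3 with DESeq2's size factors and 2 with library size scaling. The trehalase gene tre-2 changed by -0.55 in labelled-deficient and -1.88 in WT animals (interaction 1.34 ± 0.16, adjusted p 3e-06), whereas the trehalase gene tre-5 rose by 2.61 in labelled-deficient and 2.58 in WT animals, which differed by 0.04 ± 0.26 (adjusted p 0.929). gyg-2, a glycogenin, lost its repression (interaction 1.01 ± 0.22, adjusted p 0.00188), and so did the glycogen phosphorylase gene pygl-1 (interaction 0.87 ± 0.25, adjusted p 0.0148), a call that ended under library size scaling. In gluconeogenesis, fbp-1 (fructose-1,6-bisphosphatase) lost its fall: it had -0.16, not called, in labelled-deficient and -1.12 in WT animals (interaction 0.95 ± 0.16, adjusted p 0.000128). The glyoxylate cycle gene icl-1 rose by 2.49 in labelled-deficient and 2.42 in WT animals and was kept within 1.5-fold.

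Several of the largest WT inductions were those of stress proteins. The small heat shock protein gene hsp-12.6 (WBGene00002013; chromosome IV, 9446229 to 9447228, minus strand) had 4.14, 4.30, 4.80 and 3.28 CPM in fasted labelled-deficient libraries, 0.528, 0.788, 0.396 and 0.505 in fed labelled-deficient, 233, 226, 229.7 and 199 in fasted WT and 0.331, 0.446, 0.538 and 0.117 in fed WT libraries. The fasted WT libraries exceeded all others, and the fasted labelled-deficient libraries exceeded both fed groups. The 4 fed WT libraries held 2 to 8 reads each of this gene, so the WT change rests on few reads in its fed libraries. Among 14 small heat shock protein genes, 3 interactions were negative and 2 positive (35.7% called, against 25.9% of all tested genes). Positive calls numbered 4 without fed WT replicate 4. All 3 negatives were in the hsp-12.6, hsp-12.3 and F08H9.3 genes. hsp-12.3 rose by 2.94 in labelled-deficient and 5.69 in WT animals (interaction -2.76 ± 0.25, adjusted p 3.73e-08) and F08H9.3 by 0.87 in labelled-deficient and 3.78 in WT animals (interaction -2.91 ± 0.28, adjusted p 1.16e-07). Antioxidant enzymes and metallothioneins had 7 negative and 5 positive interactions among 21 genes (57.1% called, against 25.9% of all tested genes). Positive ones numbered 3 and 2 under DESeq2's size factors and library size scaling. The metallothionein mtl-1 rose by 2.61 in labelled-deficient and 5.06 in WT animals (interaction -2.46 ± 0.29, adjusted p 1.53e-06), gpx-7, a glutathione peroxidase, was lost (0.38 in labelled-deficient animals, not called, and 2.18 in WT animals), and the mitochondrial superoxide dismutase sod-3 fell by 0.99 in labelled-deficient animals while its WT change of 0.30 was not called. The flavin monooxygenase gene fmo-2 rose by 3.72 in labelled-deficient and 7.29 in WT animals (interaction -3.57 ± 0.29, adjusted p 8.46e-09). The alcohol dehydrogenase gene sodh-1 rose by 5.79 in labelled-deficient and 7.69 in WT animals (interaction -1.90 ± 0.17, adjusted p 4.18e-08).

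Of 63 UDP-glucuronosyltransferase genes, 25 fell in labelled-deficient and 36 in WT animals, beside 15.7% of all tested genes in labelled-deficient and 30.6% in WT libraries, and 26 interactions were positive and 7 negative (52.4% called, against 25.9%). ugt-63 changed by -2.92 in labelled-deficient and -5.96 in WT animals (interaction 3.04 ± 0.31, adjusted p 2.53e-07), and ugt-47 rose by 0.93 in labelled-deficient and fell by 1.502 in WT animals. Of 64 cytochrome P450 genes, 16 had positive and 9 negative interactions (39.1% called, against 25.9%), a balance that became 11 and 12 under library size scaling. cyp-13A5 was opposed, with 1.94 in labelled-deficient and -0.67 in WT animals (interaction 2.61 ± 0.23, adjusted p 2.78e-08), and cyp-37B1 rose by 0.54 in labelled-deficient and 3.28 in WT animals. Glutathione S-transferases had 11 positive and 4 negative interactions among 41 genes (36.6% called, against 25.9%). Negative calls numbered 2 without fasted WT replicate 3 and 7 under library size scaling. gsto-1, an omega-class member, fell by 1.57 in labelled-deficient and rose by 1.58 in WT animals (interaction -3.15 ± 0.23, adjusted p 1.84e-09), and gst-28 rose and fell the other way round (0.54 in labelled-deficient and -2.11 in WT animals; interaction 2.66 ± 0.25, adjusted p 7.69e-08).

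Secreted digestive and antimicrobial proteins had responses of both directions and interactions of both signs. Of 25 protease genes, 14 fell and 6 rose in labelled-deficient animals, and 14 fell and 11 rose in WT animals. Interactions were positive for 8 and negative for 10 (72% called, against 25.9% of all tested genes), with 5 positive under library size scaling. By class 3 were lost, 6 reduced, 5 kept, 7 enlarged and 2 opposed. Some falls were smaller and some larger in labelled-deficient than in WT animals. The aspartyl protease genes show both: asp-8 changed by -1.48 in labelled-deficient and -4.91 in WT animals (interaction 3.43 ± 0.27, adjusted p 4.98e-09) and asp-14 by -1.46 in labelled-deficient and -3.88 in WT animals (interaction 2.43 ± 0.19, adjusted p 4.61e-09), whereas asp-1 changed by -3.81 in labelled-deficient and -1.49 in WT animals (interaction -2.32 ± 0.20, adjusted p 1.71e-08) and asp-2 by -4.40 in labelled-deficient and -2.94 in WT animals (interaction -1.46 ± 0.15, adjusted p 3.78e-07). Of 31 genes for lysozymes and saposin-like proteins, 17 fell and 5 rose in labelled-deficient animals, and 16 fell and 12 rose in WT animals. Their interactions were negative for 13 and positive for 6 (61.3% called, against 25.9% of all tested genes). The lysozyme gene lys-3 rose by 2.77 in labelled-deficient and fell by 0.92 in WT animals (interaction 3.69 ± 0.32, adjusted p 2.25e-08), and lys-4 fell by 1.71 in labelled-deficient and rose by 1.00 in WT animals (interaction -2.71 ± 0.16, adjusted p 1.02e-10). ilys-2, an invertebrate-type lysozyme gene, was among the 34 enlarged inductions, with 4.89 in labelled-deficient and 2.40 in WT animals (interaction 2.49 ± 0.55, adjusted p 0.00214). In the dod and irg genes, regulated by insulin signalling and by infection, 13 of 17 fell in labelled-deficient and 12 in WT animals. Of all tested genes 15.7% fell in labelled-deficient and 30.6% in WT libraries. Interactions of the list were positive for 5 and negative for 4 (52.9% called, against 25.9% of all tested genes). irg-5 lost its fall, with 0.06 in labelled-deficient animals, not called, and -4.09 in WT animals (interaction 4.15 ± 0.28, adjusted p 4.12e-10), dod-19 fell less (-1.93 in labelled-deficient and -5.14 in WT animals), and dod-24 changed by -2.96 in labelled-deficient and -2.95 in WT animals and was kept within 1.5-fold.

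The enlarged class held 125 repressions and 34 inductions. Besides vit-3 and acdh-1 its large falls in labelled-deficient animals included argk-1, an arginine kinase (-4.72 in labelled-deficient and -3.94 in WT animals), lys-2 (-5.64 in labelled-deficient and -4.80 in WT animals), spp-4, a saposin-like protein (-5.78 in labelled-deficient and -4.34 in WT animals), and the adult cuticle collagen col-19 (-4.44 in labelled-deficient and -3.25 in WT animals; interaction -1.19 ± 0.23, adjusted p 0.000697). The hedgehog-like genes grd-3 and grd-4 fell further as well (-5.75 in labelled-deficient and -4.09 in WT animals for grd-3, -5.13 in labelled-deficient and -2.55 in WT animals for grd-4). Of 116 collagen genes, 50 fell in each genotype, beside 15.7% of all tested genes in labelled-deficient and 30.6% in WT libraries. Interactions were positive for 19 and negative for 21 (34.5% called, against 25.9% of all tested genes). Negative calls numbered 13 without fed labelled-deficient replicate 2 and 30 under library size scaling. They numbered 8 under a filter of a mean of 5 CPM and 10 at an adjusted p of 0.01. col-93 changed by -5.82 in labelled-deficient and -9.26 in WT animals (interaction 3.43 ± 0.36, adjusted p 2.61e-07), and col-8 and col-106 fell in both, with interactions of 0.06 and 0.01 inside 1.5-fold. Hypodermal markers, which include col-19, summed to 119.4 to 138.6 CPM in fasted labelled-deficient, 550 to 793 in fed labelled-deficient, 247 to 279 in fasted WT and 1453 to 2686 in fed WT libraries; their part in the collagen values was not tested.

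Gained responses, called in labelled-deficient animals and not in WT animals, numbered 233 in each direction. C50F7.5 (WBGene00016845; chromosome IV, 7726719 to 7727639, plus strand) had the largest gained rise. It had 57.0, 62.2, 68.0 and 70.9 CPM in fasted labelled-deficient libraries, 7.92, 9.35, 7.66 and 9.04 in fed labelled-deficient, 6.14, 7.67, 7.63 and 6.46 in fasted WT and 5.67, 5.80, 8.07 and 7.85 in fed WT libraries. The fed and fasted WT libraries overlapped, and every fasted labelled-deficient library lay above every other library. Its change was 2.92 ± 0.13 (adjusted p 4.95e-14) in labelled-deficient and 0.03 ± 0.14 (adjusted p 0.849) in WT animals, with an interaction of 2.89 ± 0.19 (adjusted p 3.94e-10). Gained falls included K02A11.4 (-2.47 in labelled-deficient and 0.26 in WT animals), the F-box gene fbxa-128 (-2.64 in labelled-deficient and 0.05 in WT animals), the astacin protease gene nas-20 (-2.28 in labelled-deficient and 0.11 in WT animals), the heme-carrying peptide gene hrg-3 (-2.30 in labelled-deficient and -0.31 in WT animals) and the C-type lectin gene clec-97 (-2.06 in labelled-deficient and 0.19 in WT animals). The WT changes of these genes were not called.

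Transthyretin-like genes, a secreted family of nematodes, fell more often in labelled-deficient than in WT animals. Of 50 genes, 34 fell and 5 rose in labelled-deficient animals, against 20 that fell and 13 that rose in WT animals, and 22 interactions were negative and 7 positive (58.0% called, against 25.9%). The list held 12 gained responses, 3 opposed and 15 kept ones, and the median change was -0.71 in labelled-deficient and -0.03 in WT libraries. ttr-32 fell by 1.94 in labelled-deficient animals and had -0.26, not called, in WT animals (interaction -1.67 ± 0.24, adjusted p 2.27e-05), and ttr-42 fell by 1.30 in labelled-deficient animals, with 0.34, not called, in WT animals. ttr-45 ran against the list, rising by 2.59 in labelled-deficient and 0.45 in WT animals (interaction 2.14 ± 0.16, adjusted p 1.64e-09). F-box A genes, adaptors of ubiquitin ligases, rose for 31 of 182 in labelled-deficient and 80 in WT animals, beside 19.6% of all tested genes in labelled-deficient and 30.4% in WT libraries. They had 38 negative and 15 positive interactions, 29.1% called and near the 25.9% of all tested genes (60 and 6 under library size scaling, and 55 negative without fed WT replicate 1); fbxa-87 rose by 1.35 in labelled-deficient and 3.69 in WT animals, and fbxa-69 was opposed (-0.93 in labelled-deficient and 0.75 in WT animals). Many members of these families resemble one another closely, so reads may have been split among them.

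Autophagy genes, many of them HLH-30 targets, rose more often than they fell in both genotypes. Of 29 genes, 16 rose and 1 fell in labelled-deficient and 17 rose and 3 fell in WT animals; 14 were kept, 10 of them within 1.5-fold, and the medians were 0.36 in labelled-deficient and 0.34 in WT libraries. Interactions were called for 4 genes (13.8%, against 25.9% of all tested genes): mxl-3 and atg-5 positive, epg-2 and atg-10 negative, atg-5 named after its values were seen; for atg-5 the adjusted p ran from 0.00632 to 0.101 with single libraries left out, and its call ended under both other scalings. Under library size scaling, which lowers all interactions, 12 were negative. mxl-3, which represses lysosomal lipase genes in fed animals, changed by -0.84 in labelled-deficient and -2.11 in WT animals (interaction 1.27 ± 0.15, adjusted p 1.23e-06). epg-2 rose by 0.64 in labelled-deficient and 1.32 in WT animals, and the rise of atg-10 was lost (-0.16 in labelled-deficient animals, not called, and 0.61 in WT animals).

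Of 24 transcriptional regulators of fasting and fat, 7 were kept within 1.5-fold, and these are named although they were chosen after their values were seen. nhr-49 rose by 0.31 in labelled-deficient and 0.25 in WT animals, hlh-30 by 0.38 in labelled-deficient and 0.37 in WT animals, and sbp-1, the SREBP homologue, by 0.71 in labelled-deficient and 0.48 in WT animals. mdt-15, a Mediator subunit, rose by 0.56 in labelled-deficient and 0.39 in WT animals, crtc-1 by 0.65 in labelled-deficient and 0.58 in WT animals, pha-4 by 0.58 in labelled-deficient and 0.42 in WT animals, and nhr-64 by 0.75 in labelled-deficient and 0.62 in WT animals. Their interactions lay between 0.01 and 0.23, none called. The regulators whose response differed were crh-1, mxl-3, daf-16 and skn-1 with positive and nhr-25 with a negative interaction, skn-1 and nhr-25 likewise chosen afterwards; for skn-1 (0.46 ± 0.16, adjusted p 0.0389) the adjusted p ran from 0.00895 to 0.0905 with single libraries left out, and its call ended under both other scalings. crh-1, the CREB homologue, rose by 0.40 in labelled-deficient and fell by 1.04 in WT animals (interaction 1.44 ± 0.19, adjusted p 6.25e-06). daf-16, the FOXO factor of insulin signalling, rose by 0.63 in labelled-deficient animals and had -0.21, not called, in WT animals (interaction 0.84 ± 0.17, adjusted p 0.000866).

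Nutrient signalling genes had interactions of both signs. The AMPK list had 1 positive and 1 negative interaction among 9 genes (22.2% called, against 25.9%): aak-1, a catalytic subunit, rose by 0.64 in labelled-deficient and fell by 0.38 in WT animals (interaction 1.02 ± 0.15, adjusted p 3.27e-05), and aakg-4, a gamma subunit, rose by 0.65 in labelled-deficient and 1.66 in WT animals (interaction -1.01 ± 0.16, adjusted p 8.93e-05). From the insulin receptor to FOXO, 2 of 11 genes had positive and 3 negative interactions (45.5% called), with 1 and 5 under library size scaling. There akt-2 lost its rise (0.04 in labelled-deficient animals, not called, and 0.80 in WT animals; interaction -0.75 ± 0.16, adjusted p 0.00118), ist-1, an insulin receptor substrate, rose by 0.55 in labelled-deficient and 1.30 in WT animals, and the receptor gene daf-2 rose by 0.63 in labelled-deficient and 1.12 in WT animals with an interaction of -0.48 ± 0.25 (adjusted p 0.16), a negative call under library size scaling. Of 29 insulin-like peptide genes, 9 interactions were positive and 4 negative (44.8% called, against 25.9%), with 5 positive under library size scaling. A filter of a mean of 5 CPM left 1 positive and 2 negative calls, and an adjusted p of 0.01 left 3 positive and 2 negative ones. Negative calls numbered 2 without any one of fasted labelled-deficient replicates 1 and 4, fed labelled-deficient replicate 3, fasted WT replicate 1 and fed WT replicate 4. ins-19 fell by 3.55 in labelled-deficient and rose by 0.69 in WT animals (interaction -4.24 ± 0.48, adjusted p 8.49e-07), and ins-7 changed by -1.44 in labelled-deficient and -2.40 in WT animals (interaction 0.96 ± 0.29, adjusted p 0.0176), a call that ended under library size scaling. In one-carbon metabolism ahcy-1, the S-adenosylhomocysteine hydrolase gene, rose by 0.48 in labelled-deficient and fell by 0.60 in WT animals (interaction 1.09 ± 0.21, adjusted p 0.000534).

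Most genes of body muscle structure fell in both genotypes. Of 31 genes, 24 fell in labelled-deficient and 29 in WT animals, with medians of -0.98 in labelled-deficient and -1.01 in WT libraries; 16 were kept, 11 of them within 1.5-fold. Interactions were positive for 9 and negative for 4 (41.9% called, against 25.9% of all tested genes). That balance became 2 and 11 under library size scaling. Summed body muscle markers stood at 568 to 649 CPM in fasted labelled-deficient, 908 to 1255 in fed labelled-deficient, 816 to 975 in fasted WT and 1066 to 1514 in fed WT libraries, and their part in these values was not tested. The myosin light chain gene mlc-1 changed by -1.74 in labelled-deficient and -1.93 in WT animals (interaction 0.19 ± 0.17, adjusted p 0.414). The troponin I gene tni-4 lost its fall (-0.14 in labelled-deficient animals, not called, and -1.29 in WT animals; interaction 1.15 ± 0.16, adjusted p 1.83e-05), and the positive call of unc-95, a muscle attachment protein (0.83), ended under library size scaling. Kept responses also included scl-2, which rose by 3.77 in labelled-deficient and 3.85 in WT animals, F28B4.3, which changed by -4.85 in labelled-deficient and -4.78 in WT animals, and clec-67, which changed by -4.44 in labelled-deficient and -4.25 in WT animals; library size scaling made the interactions of scl-2 and clec-67 negative calls.

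Among 10 genes for enzymes that modify lysine 27 of histone H3, 6 rose in labelled-deficient and 9 in WT animals, beside 19.6% of all tested genes in labelled-deficient and 30.4% in WT libraries. Interactions were negative for 3 and positive for 0 by edgeR (30.0% called, near the 25.9% of all tested genes). The demethylase gene utx-1 had 46.0, 40.8, 43.6 and 44.5 CPM in fasted labelled-deficient libraries, 33.8, 37.3, 31.1 and 32.8 in fed labelled-deficient, 43.2, 47.8, 46.9 and 46.1 in fasted WT and 21.1, 21.5, 21.1 and 17.9 in fed WT libraries. Fed WT libraries were the lowest, fed labelled-deficient libraries came next, and the fasted groups overlapped. utx-1 rose by 0.37 in labelled-deficient and 1.17 in WT animals (interaction -0.80 ± 0.14, adjusted p 0.00017). jmjd-3.2 rose by 0.59 in labelled-deficient and 1.42 in WT animals (interaction -0.84 ± 0.20, adjusted p 0.00405), and cbp-3 lost its rise (-0.19 in labelled-deficient animals, not called, and 0.49 in WT animals; interaction -0.69 ± 0.23, adjusted p 0.0318); the adjusted p ran from 0.00752 to 0.0693 with single libraries left out for cbp-3. Genes for histones had 7 positive and 5 negative interactions among 56 (21.4% called), with 4 and 10 under library size scaling and 8 negative without fed WT replicate 2; the linker histone gene hil-1 rose by 1.55 in labelled-deficient and 3.45 in WT animals (interaction -1.91 ± 0.16, adjusted p 1.68e-08). Core histone transcripts are mostly without a poly(A) tail and their genes are near-identical copies, so their values are uncertain after poly(A) selection.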

How the data were processed

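Poly(A)-selected RNA of whole animals was sequenced as paired reads in 16 libraries. The authors deposited a table of estimated counts per gene; the submitters' processing notes name Salmon 1.9.0 and the builds WBcel235 and ce11, and use of strand is not given in the sources used here. They were rounded, filtered with filterByExpr over the 4 groups and scaled by TMM, and edgeR 4.0.16 (R 4.3.3) fitted 1 coefficient per group with robust quasi-likelihood, with Benjamini-Hochberg adjustment over all tested genes at 0.05. Standard errors were the absolute log2 change over the root of F. limma 3.58.1 voom and DESeq2 1.42.0 were alternatives, beside other scalings, filters, an adjusted p of 0.01, a replicate block and each library left out. The interaction test and the classes were tested on simulated data with independent libraries and the same dispersion for every gene. That simulation cannot show how calls depend on unequal spread among groups or on variation shared between libraries. Positions are from the WBcel235 Ensembl annotation. Gene lists were built from symbols. The members and lists were chosen with earlier results of these data known. Named genes were drawn from the 8 largest interactions of each sign, in each list the 3 largest interactions and the largest change in each genotype, the 8 largest kept, gained, enlarged and opposed responses, all above a mean of 5 CPM, as well as cbp-1, jmjd-3.1 and the members of lists of 8 or fewer, and not all of these are named; others are said to be chosen after their values were seen. Total reads per library ran from 16446032 to 27792655, and precision of a gene follows from its reads and the spread over 4 libraries. The protocols state independent biological replicates, so the spread is between those. All libraries carry the same batch label. Replicate libraries differed beyond counting noise.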

Additional observations from a re-analysis of the deposited data

Results flagged for a closer look

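Of 644 groups of 4 libraries examined over the named genes, 30 held a library that stood apart from the other 3 by Dixon's ratio (4.66%), where chance gives about 1 in 20. Among fasted labelled-deficient libraries the single high value was that of cbp-1 (322 CPM in replicate 4), grd-3 (1.79 CPM in replicate 4), sodh-1 (1399 CPM in replicate 3) and vha-18 (146 CPM in replicate 1). Among fasted labelled-deficient libraries the single low value was that of cav-1 (323 CPM in replicate 1) and ldh-1 (37.5 CPM in replicate 1). Among fed labelled-deficient libraries the single high value was that of cpt-2 (97.3 CPM in replicate 4) and jmjd-3.1 (21.4 CPM in replicate 2). Among fed labelled-deficient libraries the single low value was that of cbp-3 (132 CPM in replicate 4), lipl-5 (66.5 CPM in replicate 1), nhr-49 (94.95 CPM in replicate 3), sago-2 (19.2 CPM in replicate 3) and ttr-32 (20.7 CPM in replicate 4). Among fasted WT libraries the single high value was that of aakg-4 (41.2 CPM in replicate 4), clec-97 (68.2 CPM in replicate 1), dgat-2 (15.8 CPM in replicate 3), fat-6 (1359 CPM in replicate 3) and vha-18 (146 CPM in replicate 4). Among fasted WT libraries the single low value was that of elo-6 (858 CPM in replicate 4), gsto-1 (16.98 CPM in replicate 4) and lipl-2 (126 CPM in replicate 4). Among fed WT libraries the single high value was that of clec-67 (229 CPM in replicate 2), cpt-4 (1.40 CPM in replicate 2), fmo-2 (1.75 CPM in replicate 3) and vha-6 (266 CPM in replicate 2). Among fed WT libraries the single low value was that of cct-7 (84.7 CPM in replicate 1), epg-2 (57.5 CPM in replicate 4), gst-28 (11.1 CPM in replicate 4), lbp-7 (66.8 CPM in replicate 4) and utx-1 (17.9 CPM in replicate 4).

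The fasting response differed between genotypes, by the edgeR interaction test, for 4109 genes. Among the genes named above, 20 changed significantly in opposite directions. A rise in labelled-deficient and a fall in WT animals was found for aak-1 (1.02), ahcy-1 (1.09), crh-1 (1.44), cyp-13A5 (2.61), flp-15 (2.73), gst-28 (2.66), lys-3 (3.69), nlp-12 (3.19), rps-2 (0.79), rps-6 (0.75), ugt-47 (2.44) and vha-6 (1.93), where the log2 interaction stands in parentheses. A fall in labelled-deficient and a rise in WT animals was found for elo-5 (-2.10), fat-6 (-1.04), fbxa-69 (-1.68), gsto-1 (-3.15), ins-19 (-4.24), lbp-5 (-1.88), lipl-1 (-1.51) and lys-4 (-2.71).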

How the results depend on the processing

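Scaling by library size alone gave 989 positive and 3547 negative interactions and a median of -0.22. It turned the sign of the median interaction in 25 of 60 lists: trehalose and glycogen (-0.0783), citric acid cycle (-0.0179), respiratory chain (-0.0772), mitochondrial ribosomal proteins (-0.0269), translation factors (-0.0331), aminoacyl tRNA synthetases (-0.00188), proteasome (-0.0176), mitochondrial stress (-0.00274), cytochrome P450 (-0.14), glutathione S-transferases (-0.0758), insulin receptor to FOXO (-0.10), regulators (-0.12), histone deacetylases and sirtuins (-0.0799), amino acid transporters (-0.13), germline (-0.00651), body muscle (-0.11), beta-oxidation (-0.18), glyoxylate cycle and gluconeogenesis (-0.19), small heat shock proteins (-0.12), AMPK (-0.13), one-carbon metabolism (-0.20), Argonautes (-0.21), dehydrogenases (-0.22), autophagy (-0.28) and antioxidant enzymes (-0.28). DESeq2's size factors turned 3: dehydrogenases (-0.00901), antioxidant enzymes (-0.0651) and autophagy (-0.0577). A filter of a mean of 5 CPM gave 6229 WT fasting calls and 1191 lost responses with fewer genes tested, and turned 11 list medians: proteases (0.0352), cytochrome P450 (-0.0674), collagens (0.11), insulin-like peptides (-0.39), zygotic embryo genes (0.0176), histones (0.19), other lipases (0.29), carnitine palmitoyltransferases (0.26), beta-oxidation (-0.0268), hedgehog-like genes (0.11) and autophagy (-0.0546). An adjusted p of 0.01 gave 2129 interactions (1215 positive, 914 negative), 3564 labelled-deficient fasting calls, and 1147 lost, 527 reduced, 83 enlarged, 220 gained and 111 opposed responses, with 579 kept within 1.5-fold. DESeq2 called 4325 interactions (1925 positive and 2400 negative) and limma voom 4148. Not every same-numbered pair of libraries had deviations correlated above 0.1 (13 of 24 did), so the replicate number was not taken as a pairing. Between the fed groups all 4 pairs were above it, from 0.114 to 0.424, and 15 of 24 pairs correlated best with their own number, a hint from the data and not the design. The replicate block gave 6422 interactions (3843 positive), and 1794 reduced, 276 enlarged, 835 gained and 585 opposed responses, with 1703 kept within 1.5-fold. With each library left out in turn, interactions ran from 3288 (without fasted WT replicate 1) to 5113 (without fed labelled-deficient replicate 4), positive ones from 1835 to 2971, negative ones from 1446 to 2142, fasting calls from 4577 to 6248 in labelled-deficient and from 8892 to 9980 in WT libraries, and responses from 1630 to 2741 lost, 811 to 1121 reduced, 2421 to 3077 kept, 125 to 191 enlarged, 323 to 695 gained, 193 to 356 opposed and 684 to 1219 kept within 1.5-fold. Of the 161 named genes, 123 kept the direction and the side of the threshold of their interaction under all 8 other alternatives and all 16 left-out libraries. Where a value moved, the cause was not tested. Genes with few reads, such as hsp-12.6 in fed WT libraries, have uncertain fold changes.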

Other observations

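Nuclear hormone receptor genes, which encode ligand-regulated transcription factors, had 18 positive and 19 negative calls among 215 genes (17.2% called, against 25.9% of all tested genes), and 7 positive and 36 negative ones under library size scaling. nhr-31 changed by -0.30 in labelled-deficient and -1.96 in WT animals (edgeR interaction 1.66, adjusted p 9.61e-08), and nhr-144 lost its rise (0.03 in labelled-deficient animals, not called, and 1.57 in WT animals). Argonaute and RNA interference genes had 5 positive and 9 negative calls among 36 (38.9% called, against 25.9%). Positive calls numbered 3 without any one of fasted labelled-deficient replicate 4 and fed labelled-deficient replicate 3, and 10 without fed labelled-deficient replicate 4, and 2 under library size scaling, and negative ones 5 without any one of fed labelled-deficient replicate 2 and fed WT replicate 4. sago-2, a secondary Argonaute gene, lost its fall (0.10 in labelled-deficient animals, not called, and -1.88 in WT animals; edgeR interaction 1.98, adjusted p 4.17e-07), and wago-10 rose by 0.43 in labelled-deficient and 1.70 in WT animals (edgeR interaction -1.27, adjusted p 0.000165).

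Of 23 citric acid cycle genes, 4 had positive and 1 a negative interaction (21.7% called, below the 25.9% of all tested genes). Positive calls numbered 7 without any one of fed labelled-deficient replicate 4 and fed WT replicate 1, and negative ones 5 under library size scaling. mdh-2, a malate dehydrogenase, had 0.14 in labelled-deficient animals, not called, and -0.65 in WT animals (edgeR interaction 0.79, adjusted p 0.00204), and sdhd-1, a succinate dehydrogenase subunit, rose by 0.49 in labelled-deficient animals (edgeR interaction 0.68, adjusted p 0.00523). In endoplasmic reticulum folding, 3 interactions were positive and 3 negative among 18 genes (33.3% called, against 25.9% of all tested genes). Library size scaling gave 0 positive and 9 negative ones. Negative ones numbered 1 without any one of fasted labelled-deficient replicate 1 and fed labelled-deficient replicate 2. The calreticulin gene crt-1 rose by 1.20 in labelled-deficient and 1.74 in WT animals, with an edgeR interaction of -0.54 (adjusted p 0.0275); the adjusted p ran from 0.00437 to 0.0676 with single libraries left out. Germline, cell cycle and meiosis genes had 5 positive calls and 0 negative by edgeR among 40 (12.5% called, below 25.9%). Positive calls numbered 3 without any one of fasted labelled-deficient replicates 2 and 4, fed labelled-deficient replicates 1 and 3, fasted WT replicates 1, 2 and 3 and fed WT replicate 4, and 8 to 9 without any one of fed labelled-deficient replicate 4 and fed WT replicate 1, and 0 under library size scaling, where 2 were negative. Germline Notch receptor gene glp-1 had 0.38 in labelled-deficient and -0.48 in WT animals (edgeR interaction 0.86, adjusted p 0.0104). Major sperm protein genes had 4 negative and 0 positive calls by edgeR among 8 tested (50% called, against 25.9% of all tested genes). Their median interaction was -1.70, and 4 of the 5 with a fasting call were lost. The summed level of the list was 3.64 to 4.37 CPM in fasted labelled-deficient libraries, 4.05 to 5.98 in fed labelled-deficient, 1.70 to 3.04 in fasted WT and 0.879 to 1.99 in fed WT libraries. These genes are near-identical copies, so single members are uncertain.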
